A study of Macaca mulatta with 136 samples.

Results

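The genes described here are 9 that are widely used as markers of Müller glia and astrocytes, the macroglia of the retina: GLUL, SLC1A3, AQP4, KCNJ10, GFAP, VIM, SOX9, SOX2 and CLU. They were chosen by name, with earlier results of these data known, and all 9 symbols were found, in 10 of the 19422 entries of the expression tables. GLUL had 2 entries, of which ENSMMUG00000022884 carried the signal and ENSMMUG00000038555 never exceeded 0.164 CPM (estimated counts scaled to a common library size) in any library and passed no filter on low counts. All 9 genes passed the filter in every comparison through 1 entry each.

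RNA-seq was performed on 2 mm punches taken after death from 4 eyes of 2 adult rhesus macaques, RM03 and RM04. Each punch was separated by dissection into neural retina and RPE/choroid, meaning the retinal pigment epithelium with the choroid, the vascular coat behind it. Fovea, perimacula, nasal and periphery punches of both tissues gave 8 groups of 4 eyes, or 32 libraries. Eyes 1 and 2 are the right and left eye of RM03 and eyes 3 and 4 those of RM04. Values of single eyes are given in this order. The p-values rest on the spread between eyes of 2 animals, pooled over the groups fitted together, and not on 4 animals. The main tests adjusted for the animal but did not pair the punches of 1 eye.

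Müller glia span the whole thickness of the retina, wrap every class of retinal neuron and build the inner and outer limiting membranes. They take up the glutamate that neurons release, convert it to glutamine, and move potassium ions and water between neurons, vitreous and vessels. Astrocytes migrate into the retina along the optic nerve and stay in the nerve fiber layer, and they are scarce or absent in the avascular fovea of primates. GFAP and VIM build the intermediate filaments of these cells, and GFAP in Müller glia is the usual sign of a reactive state.

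Totals ranged from 42448903 to 78574055 estimated counts per library, and the lowest count of any of the 9 genes was 47, for GFAP. Fovea, perimacula and nasal libraries shared 2 flow cells, whereas the periphery libraries were run on 1 flow cell of their own, and effects of location and of flow cell cannot be told apart for the periphery. All 9 measured rod markers summed to between 4012 and 4610 CPM in foveal retina, 10645 and 16553 in perimacula, 15101 and 17438 in nasal and 23895 and 28046 in peripheral retina. Ganglion cell markers, 9 of 9 measured, ran the other way, from 7866 to 8864 CPM at the fovea to between 398 and 838 at the periphery. RPE markers, 7 of 8 measured, summed to between 230 and 333 CPM in foveal and between 751 and 1506 CPM in peripheral retina, against 8671 to 25062 in RPE/choroid. In 3 RPE/choroid libraries, eye 1 of the perimacula and eyes 1 and 2 of the periphery, markers of Schwann cells and peripheral myelin stood apart at 10527, 6362 and 16261 CPM, while the other 13 RPE/choroid libraries held between 951 and 2966 CPM.

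In retina, every one of the 9 genes had its lowest mean at the fovea. Between fovea and nasal retina, which shared flow cells, 9 of 9 genes were called lower at the fovea (edgeR quasi-likelihood test with the animal as covariate, Benjamini-Hochberg adjusted p under 0.05 over all genes), with a median log2 fold change of -0.74. A negative value means lower at the location named first. Over all 15486 genes tested in this comparison 52.2% were called and 27.2% were called lower at the fovea, with a median of -0.04. Between fovea and periphery, 8 of 9 were called lower at the fovea, with a median of -1.20, where 67.0% of all 15380 genes were called and 36% were called lower at the fovea, with a median of -0.06. SOX9 was the gene not called there. Between fovea and perimacula, 4 of 9 were called, KCNJ10, SLC1A3, VIM and CLU, all lower at the fovea, against 35.2% of all genes called and 16.2% called lower. GFAP (-0.63, adjusted p = 0.0546) and SOX9 (-0.24, adjusted p = 0.0712) were near the threshold there. The alternative tool DESeq2 called both (-0.64, adjusted p = 0.0228, and -0.25, adjusted p = 0.0372), and 5989 of all 15380 genes. In these bulk samples fewer glial cells and less RNA per glial cell cannot be told apart, and CPM are shares of a library in which the rod and ganglion cell markers above also moved. The part of those cells in the differences was not tested.

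**Figure D1:**
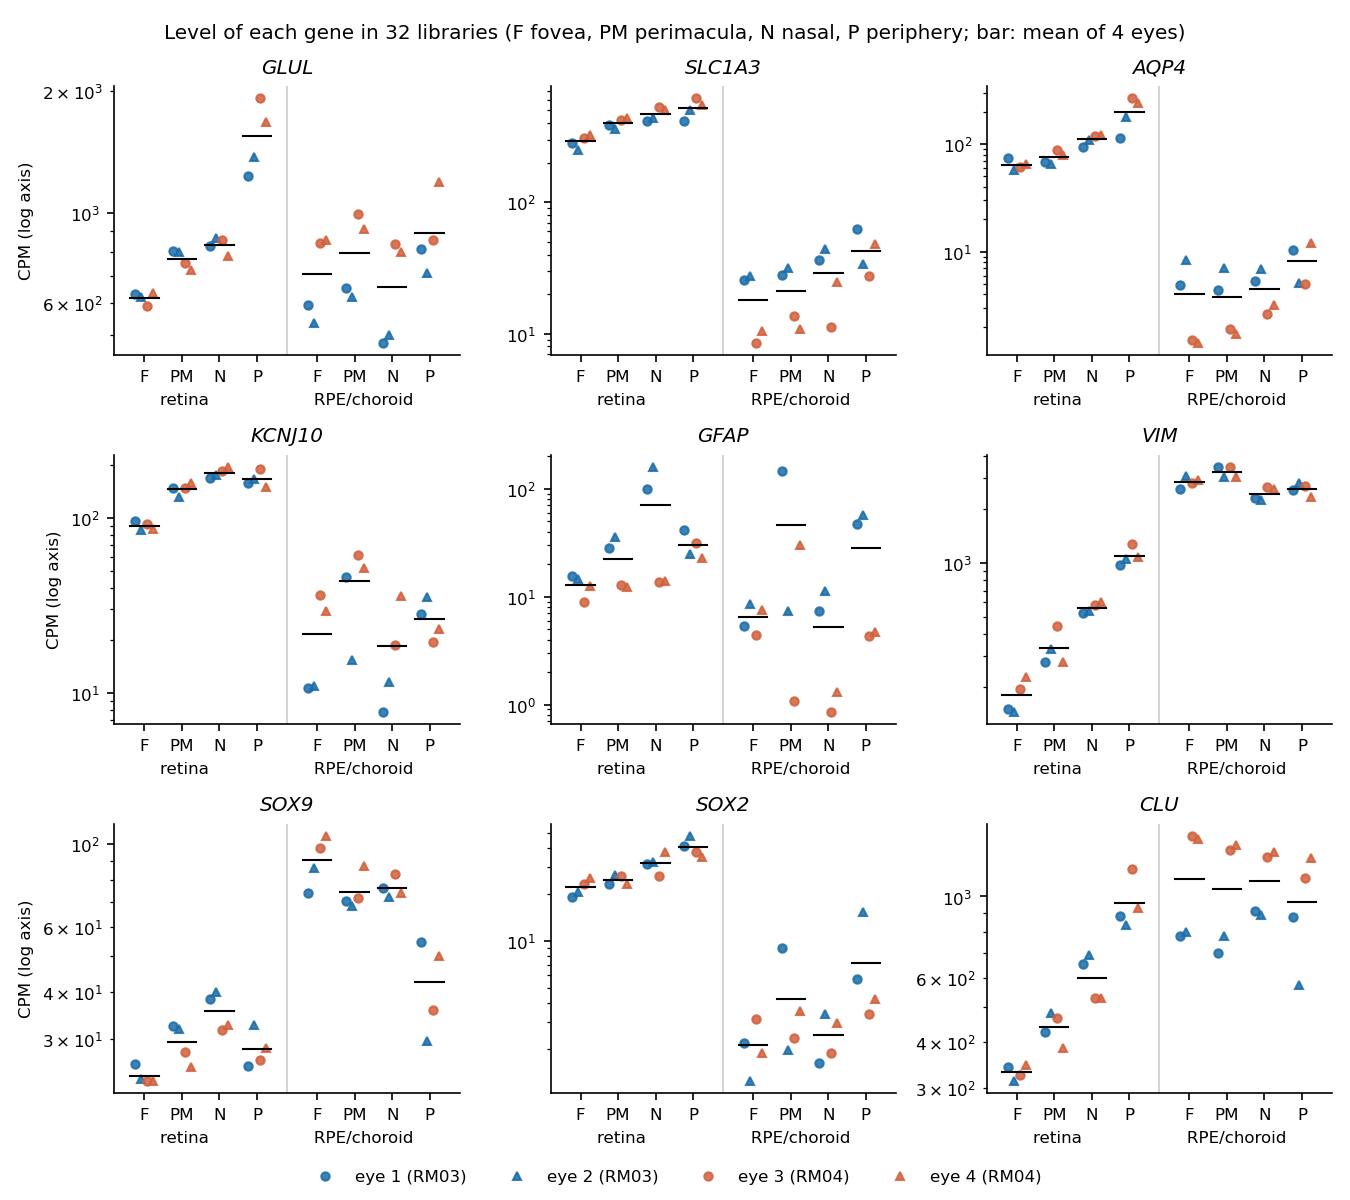
TMM-normalized CPM (logarithmic axes) of the 9 genes in all 32 libraries by tissue and location, with circles and triangles for the right and left eye, blue for RM03, orange for RM04, and a bar at the mean of 4 eyes. In retina the fovea held the lowest mean of each gene, and VIM, CLU and SOX9 lay lower in retina than in RPE/choroid at the fovea.

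The first step of glutamate clearance is uptake, carried in Müller glia mainly by SLC1A3 (ENSMMUG00000006202), which encodes the glutamate and aspartate transporter GLAST. Its retinal level was 282, 250, 310 and 326 CPM at the fovea and 387, 364, 423 and 442 at the perimacula. Nasal retina held 418, 441, 535 and 503 CPM and the periphery 413, 504, 620 and 550. The foveal eyes all lay below every eye of the other 3 locations, whereas the nasal and peripheral eyes overlapped. SLC1A3 was 1.58-fold lower at the fovea than in nasal retina (log2 fold change -0.66, standard error 0.07, adjusted p = 2.62e-06) and 1.33-fold lower than at the perimacula (-0.42, standard error 0.08, adjusted p = 0.00269). Nasal retina and periphery differed by -0.12 (adjusted p = 0.159), and by -0.22 (adjusted p = 0.0485) without eye 1.

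GLUL, the glutamine synthetase that converts the glutamate taken up into glutamine, stood at 629, 619, 589 and 633 CPM at the retinal fovea and at 807, 800, 750 and 722 CPM at the perimacula. Nasal retina had 829, 869, 858 and 784 CPM, and the periphery 1237, 1372, 1922 and 1679. The periphery thus stood above the rest in all 4 eyes, and both eyes of RM04 were above both eyes of RM03 there. The difference was 1.32-fold between fovea and nasal retina (log2 fold change -0.40, standard error 0.11, adjusted p = 0.00694) and 2.41-fold between fovea and periphery (-1.27, standard error 0.12, adjusted p = 1.93e-06). Fovea and perimacula did not overlap, but the main fit did not call their difference (-0.26, adjusted p = 0.0992). It was called when only these groups were fitted (-0.30, adjusted p = 0.00679). It was also called on either of the 2 shared flow cells alone (-0.29, adjusted p = 0.00117, and -0.27, adjusted p = 0.00305).

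AQP4 (ENSMMUG00000014934) encodes the water channel of glial endfeet. Retinal values were 73.8, 57.1, 60.7 and 65.8 CPM at the fovea, and 68.0, 65.4, 88.6 and 79.3 CPM at the perimacula. In nasal retina they were 95.0, 110, 119 and 121 CPM, and at the periphery 115, 179, 267 and 240. Fovea and perimacula overlapped. The perimacula lay below nasal retina with no overlap. The main edgeR fit did not call this difference (log2 fold change -0.57, standard error 0.16, adjusted p = 0.0913) and DESeq2 did (-0.56, adjusted p = 0.0224). edgeR called it with only these groups fitted (-0.56, adjusted p = 0.0168). It also did on either of the 2 shared flow cells alone (-0.58, adjusted p = 0.0164, and -0.55, adjusted p = 0.0263). Nasal retina and periphery overlapped, and edgeR called their difference (-0.81, standard error 0.16, adjusted p = 0.000843). AQP4 was 1.67-fold lower at the fovea than in nasal retina (log2 fold change -0.74, standard error 0.16, adjusted p = 0.00142) and 2.90-fold lower than at the periphery (-1.54, standard error 0.18, adjusted p = 1.20e-05). Within RM03 the ratio of fovea to periphery was -1.17 and within RM04 -2.00 on the log2 scale.

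KCNJ10 (ENSMMUG00000046470), the potassium channel Kir4.1 that sits beside AQP4 in Müller endfeet and sets their resting potential, followed another course. It stood at 95.7, 85.9, 92.9 and 86.2 CPM at the fovea and rose to 148, 132, 149 and 158 CPM at the perimacula. It then stood at 169, 176, 185 and 195 CPM in nasal retina and at 159, 166, 191 and 150 CPM at the periphery. The fovea lay below the rest in every eye, and the perimacula below nasal retina. Fovea and perimacula differed 1.57-fold (log2 fold change -0.65, standard error 0.09, adjusted p = 0.000253). The perimacula was lower than nasal retina in 4 of 4 eyes with no overlap (-0.31, standard error 0.07). The main edgeR fit did not call this difference (adjusted p = 0.0561) and DESeq2 did (-0.29, adjusted p = 0.0159). edgeR called it on either of the 2 shared flow cells alone (-0.32, adjusted p = 0.0248, and -0.28, adjusted p = 0.0436). The perimacula and the periphery differed by -0.18 (adjusted p = 0.0884, and -0.25 with adjusted p = 0.0371 without eye 4) and nasal retina and the periphery by 0.13 (adjusted p = 0.167).

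VIM (ENSMMUG00000003193), vimentin, which Müller glia keep throughout life, showed the widest range of the 9 genes between fovea and periphery in retina. It stood at 151, 146, 196 and 229 CPM at the fovea and at 279, 328, 443 and 279 CPM at the perimacula. Nasal retina held 522, 535, 578 and 601 CPM, and the periphery 978, 1053, 1277 and 1083. No 2 neighboring locations overlapped, and VIM was called between each pair of them, at -0.84 (adjusted p = 0.00065) between fovea and perimacula and -0.96 (adjusted p = 2.54e-05) between nasal retina and periphery. The fovea was 3.06-fold below nasal retina (log2 fold change -1.61, standard error 0.13, adjusted p = 2.61e-07) and 5.93-fold below the periphery (-2.57, standard error 0.14, adjusted p = 6.90e-08). Of all genes tested, 2.16% had a lower log2 fold change than VIM between fovea and nasal retina, and 1.65% between fovea and periphery. VIM was also the gene called between perimacula and nasal retina (-0.76, standard error 0.13, adjusted p = 0.00973), a comparison in which 1 of 9 genes and 1.49% of all genes were called. That call was lost without eye 1 (-0.69, adjusted p = 0.147) and without eye 2 (-0.75, adjusted p = 0.083).

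GFAP (ENSMMUG00000013115) was the member in which the 2 animals differed most. At the fovea it stood at 15.5, 14.4, 8.88 and 12.6 CPM, and at the perimacula at 28.1, 35.6, 12.8 and 12.3. In nasal retina it reached 98.9 and 158 CPM in the eyes of RM03 but 13.7 and 14 CPM in those of RM04. The periphery held 41.8, 25, 31.4 and 22.6 CPM. The nasal mean of 71.1 CPM therefore rests on 1 animal, and on the log2 scale the ratio of fovea to nasal retina was -3.10 within RM03 and -0.36 within RM04. GFAP was called between fovea and nasal retina (log2 fold change -1.96, standard error 0.49, adjusted p = 0.00373), but not without eye 1 (-1.58, adjusted p = 0.0635), and without eye 2 it shrank to -1.24 (adjusted p = 0.0384). Against the periphery the animals were alike, at -1.16 within RM03 and -1.33 within RM04, and the difference was called (-1.20, standard error 0.23, adjusted p = 0.0007) with no overlap of the eyes.

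SOX2 (ENSMMUG00000046147) and SOX9 (ENSMMUG00000002412) encode transcription factors of retinal progenitors that stay on in adult Müller glia. SOX2 stood at 19.3, 20.6, 23.3 and 25.6 CPM at the fovea, 23.2, 26.7, 26.2 and 23.4 at the perimacula, 31.5, 32.5, 26.4 and 37.3 in nasal retina and 41.3, 47.5, 37.3 and 35.1 at the periphery. The fovea and perimacula overlapped, and the fovea lay below nasal retina (log2 fold change -0.49, standard error 0.12, adjusted p = 0.00309) and the periphery (-0.80, standard error 0.11, adjusted p = 6.05e-05) in 4 of 4 eyes. The nasal call was lost without eye 1 (-0.38, adjusted p = 0.0582). SOX9 stood at 25.6, 23.4, 23.1 and 23.1 CPM at the fovea, 32.5, 31.8, 27.6 and 25.1 at the perimacula, 38.3, 40.0, 31.6 and 32.7 in nasal retina and 25.3, 32.7, 26.3 and 28.3 at the periphery. SOX9 was thus highest in nasal retina, above the fovea (log2 fold change -0.54, standard error 0.08, adjusted p = 5.26e-05) and above the periphery (0.35, standard error 0.08, adjusted p = 0.0024). The last call was lost without eye 1 (0.22, adjusted p = 0.0725). Fovea and periphery differed by -0.19 (standard error 0.09, adjusted p = 0.0931) for SOX9, and the adjusted p was 0.0426 with the nasal libraries in the fit.

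CLU (ENSMMUG00000021516), clusterin, is a secreted chaperone abundant in Müller glia and also made by other cells of the eye. It stood at 343, 314, 326 and 346 CPM at the retinal fovea, 428, 480, 467 and 387 at the perimacula, 656, 693, 527 and 530 in nasal retina, and 885, 835, 1190 and 932 at the periphery. The 4 locations did not overlap. The fovea was lower than the perimacula (log2 fold change -0.35, standard error 0.10, adjusted p = 0.0215), a call lost without eye 1 (-0.40, adjusted p = 0.0876), eye 2 (-0.32, adjusted p = 0.0869) or eye 3 (-0.32, adjusted p = 0.0623). It was 1.76-fold below nasal retina (log2 fold change -0.82, standard error 0.12, adjusted p = 6.32e-05) and 2.78-fold below the periphery (-1.47, standard error 0.11, adjusted p = 3.13e-07).

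**Figure D2:**
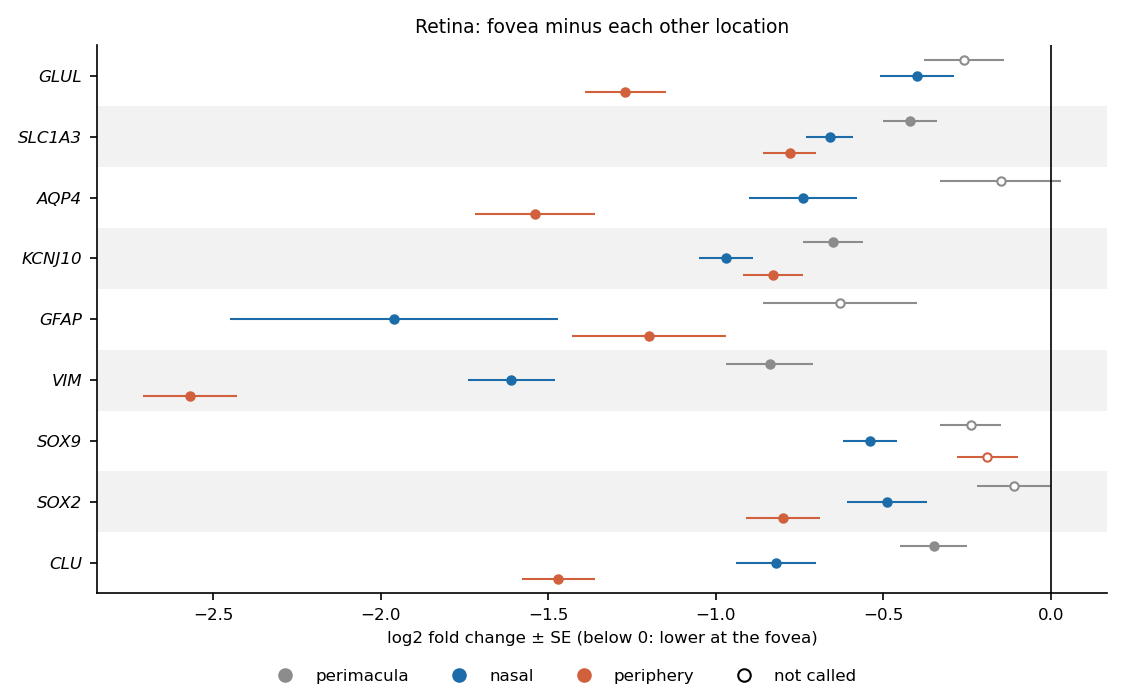
Log2 fold change with its standard error between the fovea and the perimacula (gray), nasal retina (blue) or periphery (orange) for the 9 genes in retina, with open circles for differences not called. All 9 genes lie below 0 against nasal retina, from -0.40 for GLUL to -1.96 for GFAP, and VIM lies farthest from 0 against the periphery at -2.57.

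Between the perimacula and the periphery of the retina 6 of 9 genes were called, all lower at the perimacula, where 50.3% of all genes were called. These were GLUL, SLC1A3, AQP4, VIM, SOX2 and CLU. Between nasal retina and the periphery 6 of 9 were called, against 48.7% of all genes, and they went both ways: GLUL, AQP4, VIM, SOX2 and CLU were lower in nasal retina and SOX9 was higher there. The SOX2 difference (log2 fold change -0.32, adjusted p = 0.0334) was lost without eye 1 (-0.35, adjusted p = 0.0827), eye 2 (-0.25, adjusted p = 0.169) or eye 3 (-0.27, adjusted p = 0.133).

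The genes did not form a single pattern over the 16 retina libraries. Pearson's r of log2 CPM was 0.96 between VIM and CLU, 0.95 between GLUL and CLU and 0.93 between GLUL and AQP4. It was 0.19 between GLUL and SOX9, 0.24 between SLC1A3 and GFAP and 0.25 between AQP4 and SOX9, while GFAP and SOX9 reached 0.73. These libraries share eyes, punches and flow cells, so the values describe the libraries and were not tested.

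Among 9817 entries whose retinal mean reached 3 on the log2 CPM scale, the 3 most like each gene over the same 16 libraries differed from gene to gene. VIM was most like ATP1A4 (r = 0.992), PSAT1 (0.991) and WIF1 (0.989), and AQP4 most like STAC (0.981), DKK3 (0.964) and RCN1 (0.960). GLUL was most like FAM69C (0.982), LOC695327 (0.978) and RPS27 (0.974), CLU most like RHOC (0.982), LOC697564 (0.979) and PYGL (0.979), and SLC1A3 most like SCARA3 (0.969), PIGM (0.968) and ASAH1 (0.966). For KCNJ10 the closest were RHPN2, ZNF736 and PLCE1, each at 0.969, and for SOX2 they were TECPR2 (0.948), PPP1R3C (0.932) and PRPSAP1 (0.932). SOX9 and GFAP had less close neighbors, with LMAN1 (0.924), SREK1 (0.916) and KMT2A (0.907) for SOX9 and TAF1D (0.878), SRSF10 (0.868) and KIAA1217 (0.848) for GFAP. Of these 27 genes, WIF1 and DKK3 belong to the list of other Müller glia genes described next.

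Other genes known from Müller glia were low at the retinal fovea as well. This list and those that follow were chosen with earlier results of these data known. Of 19 tested (HEPACAM, the last of the 20 listed, was not analysed here), 16 were lower and 1 was higher at the fovea than in nasal retina (median log2 fold change -1.14), and 18 were lower and 1 was higher than at the periphery (median -1.55). Over all genes, 27.2% were lower and 25.1% higher at the fovea than in nasal retina, and 36% were lower and 31% higher than at the periphery, with medians of -0.04 and -0.06, and these shares are the background for the lists that follow as well. RLBP1, the retinaldehyde binding protein of the visual cycle, had a mean of 158 CPM at the fovea, 728 CPM in nasal retina (log2 fold change -2.17, standard error 0.17) and 1380 CPM at the periphery (-3.09, standard error 0.19). It is also abundant in the pigment epithelium, at a mean of 2215 CPM in foveal and 1949 CPM in peripheral RPE/choroid, and the RPE markers in retina given above rose toward the periphery, a share that was not tested. WIF1, a secreted Wnt inhibitor, went from 178 to 566 and 1100 CPM at the same 3 retinal locations. DKK3, a secreted protein of the Dickkopf family, went from 438 to 768 and 1190 CPM, SPARCL1, a matrix protein, from 20.7 to 89.4 and 91.2 CPM, and APOE, the lipid carrier of glia, from 169 to 401 and 806 CPM. TRDN, triadin, had the largest fold, with 0.487 CPM at the fovea, 4.05 in nasal retina and 53.0 at the periphery (log2 fold change -6.71, standard error 0.46, against the periphery). The exception was CD44, a hyaluronan receptor of the Müller surface, which was higher at the fovea, at 15.4 CPM, than in nasal retina at 3.58 CPM (log2 fold change 2.15, standard error 0.30, adjusted p = 2.77e-05) and at the periphery at 7.04 CPM (1.24, standard error 0.30, adjusted p = 0.00322).

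**Figure D3:**
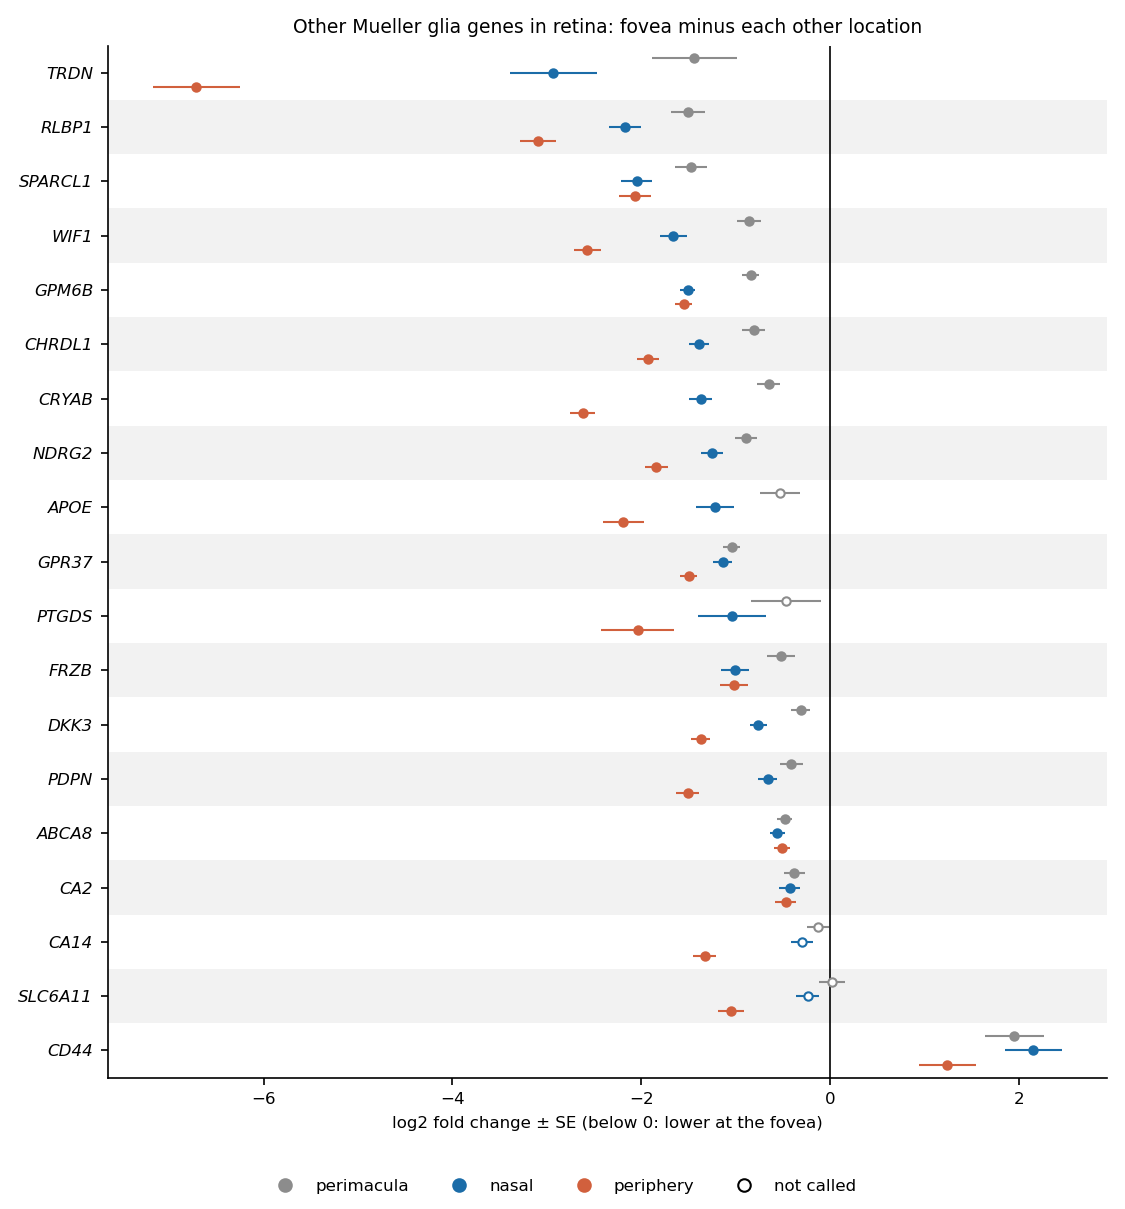
Log2 fold change with its standard error between the retinal fovea and the perimacula (gray), nasal retina (blue) or periphery (orange) for 19 other genes of Müller glia, ordered by the nasal comparison, with open circles for differences not called. The genes lie below 0 against nasal retina and periphery, from TRDN at -6.71 against the periphery, with the exception of CD44 at 2.15 against nasal retina.

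Astrocyte genes were less uniform. Of 12 that passed the filter among 13 listed, 8 were lower and 3 higher at the fovea than in nasal retina, and 5 were lower and 2 higher than at the periphery (medians -0.99 and -0.87), the last counts being near the shares of 36% and 31% over all genes. PAX2, the transcription factor of optic nerve and retinal astrocytes, was at most 0.0696 CPM in any foveal eye and stood at 1.20, 1.69, 1.83 and 2.26 CPM in nasal retina. It was thus detected in nasal retina of both animals (log2 fold change -5.53, standard error 0.86, adjusted p = 7.67e-05, a size that depends on the few foveal counts), and the nasal eyes of RM04, low in GFAP, were not low in PAX2. PAX2 was also higher in nasal retina than at the perimacula (log2 fold change -2.97, adjusted p = 0.0404) and the periphery (3.04, adjusted p = 0.00136). GJA1, the gap junction protein connexin 43, had means of 2.06, 13.4 and 43.0 CPM at the fovea, in nasal retina and at the periphery, and ALDH1L1, a folate enzyme used as a pan-astrocyte marker, 2.45, 5.37 and 15.1 CPM. ID3, an inhibitor of basic helix-loop-helix factors, had 4.14 CPM at the fovea and 24.5 CPM in nasal retina (log2 fold change -2.34, standard error 0.58). NES, the filament nestin, and ALDOC, an aldolase also made by neurons, were higher at the fovea, with 13.1 against 6.55 CPM for NES and 2470 against 1080 CPM for ALDOC between fovea and nasal retina.

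AQP4 and KCNJ10 are held at the endfeet by the dystrophin complex. Among 13 genes of this complex and of water and potassium transport, 5 were lower and 3 higher at the fovea than in nasal retina, and 5 were lower and 4 higher than at the periphery (medians 0.03 and 0.04), close to the shares over all genes of 27.2% and 25.1%, and 36% and 31%. SNTB1, a syntrophin, went from 8.44 CPM at the fovea to 20.3 in nasal retina (log2 fold change -1.23, standard error 0.12). DTNA, alpha-dystrobrevin, had the opposite order, with 45.7 CPM at the fovea, 18.1 in nasal retina (1.38, standard error 0.15) and 8.41 at the periphery, as did SLC4A4, a sodium bicarbonate cotransporter, with 47.7, 21.2 and 11.2 CPM. AQP1 was low throughout, with a mean of 0.694 CPM at the fovea and 3.68 CPM at the periphery.

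Genes of glutamate and glutamine handling other than the members went both ways, with 4 of 13 lower and 6 higher at the fovea than in nasal retina and 4 lower and 5 higher than at the periphery (medians 0.13 and 0.12). Over all genes 27.2% were lower and 25.1% higher, and 36% and 31%. SLC1A2, the transporter GLT-1, was lower at the fovea, at 15.7 CPM against 28.6 in nasal retina and 65.6 at the periphery, and so was GLS2, a glutaminase, at 4.33 against 6.89 and 12.3 CPM. SLC17A7, which loads glutamate into synaptic vesicles of photoreceptors and bipolar cells, was also lower there, at 629 against 1120 CPM in nasal retina. SLC38A1, a glutamine transporter of neurons, was higher at the fovea, at 126 against 62.9 and 27.1 CPM, as was SLC1A6, at 11.4 against 6.07 and 3.19 CPM.

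Of 20 glial and progenitor transcription factors and Notch genes, 8 were lower and 3 higher at the fovea than in nasal retina, and 6 were lower and 5 higher than at the periphery (medians -0.45 and -0.24), the last counts lying below the shares of 36% and 31% over all genes. NOTCH1, a receptor of progenitors and Müller glia, had a mean of 33.9 CPM at the fovea and 65.1 in nasal retina (log2 fold change -1.01, standard error 0.31), and HES1, a Notch target, had 9.87 CPM at the fovea and 35.4 at the periphery (-1.79, standard error 0.21). NFIX went from 44.8 CPM at the fovea to 73.5 in nasal retina (-0.68, standard error 0.08), and ID1 from 1.48 CPM at the fovea to 4.22 at the periphery. PAX6, which amacrine, ganglion and horizontal cells express strongly, was higher at the fovea, at 613 against 342 and 239 CPM, and so was ID4, at 36.2 against 17.4 and 18.5 CPM.

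Genes associated with reactive glia went both ways. Of 18 tested, 7 were lower and 3 higher at the fovea than in nasal retina, and 10 were lower and 4 higher than at the periphery (medians -0.33 and -0.72), beside 27.2% and 25.1%, and 36% and 31%, of all genes. The small heat shock protein CRYAB went from 33.7 CPM at the fovea to 90.3 in nasal retina (log2 fold change -1.37, standard error 0.12) and 217 at the periphery, SERPINA3 from 0.507 CPM at the fovea to 7.31 at the periphery, and TNC, tenascin C, from 1.81 CPM to 9.99 in nasal retina (-2.41, standard error 0.28). LCN2, lipocalin 2, was higher at the fovea, with 20.8 CPM against 9.01 in nasal retina and 7.54 at the periphery. CD44, CRYAB and EDNRB are counted in this list as well as in another one, and NES in 2 others. Of 12 other intermediate filament and linker genes, 8 were higher at the fovea than in nasal retina and none was called lower (median 1.02), beside 25.1% and 27.2% of all genes, while VIM and GFAP were lower there. The neurofilaments NEFM and NEFL, which ganglion cells make, led them, at 3450 against 586 CPM for NEFM and 2810 against 531 CPM for NEFL, while DES, desmin, was lower at the fovea than at the periphery, at 6.57 against 9.45 CPM.

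Fewer of the 9 genes were called between locations in RPE/choroid than in retina, except between perimacula and nasal punches, with 1 of 9 in each tissue. The sizes were not all smaller. Between fovea and periphery SLC1A3 differed by -1.45, against -0.78 in retina, while VIM differed by 0.13, against -2.57 in retina. In RPE/choroid none of the 9 genes was called between fovea and perimacula by edgeR or by DESeq2. Over all genes edgeR called 0.0447% there and DESeq2 314 of 15674. In edgeR 1 of 9 (KCNJ10) had an unadjusted p under 0.05. None was called by either tool between fovea and nasal punches, where edgeR called 0.361% of all genes and DESeq2 490 of 15789. In edgeR 2 of 9, SLC1A3 and VIM, had an unadjusted p under 0.05 there. Between perimacula and nasal punches 1 of 9 was called, against 3.07% of all genes. This was VIM, with 3440, 3024, 3443 and 3052 CPM at the perimacula and 2299, 2247, 2675 and 2584 CPM at the nasal location (log2 fold change 0.40, standard error 0.09, adjusted p = 0.0287). With the eye as a block the adjusted p was 0.0508, and without eye 1 it was 0.201, without eye 2 0.0728, without eye 3 0.142 and without eye 4 0.115.

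Between fovea and periphery of RPE/choroid 5 of 9 genes were called, against 44.1% of all genes. SOX9, which the pigment epithelium also uses as a transcription factor, was higher at the fovea, with 74.1, 86.0, 97.6 and 105 CPM against 54.7, 29.5, 35.9 and 49.9 CPM at the periphery. The eyes did not overlap (log2 fold change 1.07, standard error 0.18, adjusted p = 0.000819), and SOX9 stayed higher than the periphery at the perimacula (0.78, adjusted p = 0.0066) and the nasal location (0.83, adjusted p = 0.000896). The difference between fovea and periphery was 2.10-fold. CLU, by contrast, had 781, 799, 1460 and 1432 CPM at the fovea and 877, 575, 1126 and 1274 CPM at the periphery of RPE/choroid, with RM04 above RM03 at all 4 locations, and edgeR called no difference between locations, except fovea against periphery without eye 1 (0.34, adjusted p = 0.0295).

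SLC1A3 was lower at the fovea of RPE/choroid, with 25.7, 27.5, 8.50 and 10.5 CPM against 62.1, 33.8, 27.6 and 48.2 CPM at the periphery (log2 fold change -1.45, standard error 0.29, adjusted p = 0.00201). AQP4 had 4.88, 8.40, 1.5 and 1.42 CPM at the fovea and 10.4, 5.13, 5.01 and 12.1 CPM at the periphery (-1.47, standard error 0.51, adjusted p = 0.0384). The AQP4 difference was not called with the eye as a block (adjusted p = 0.0591), nor without eye 1 (-1.66, adjusted p = 0.0971), eye 3 (-1.27, adjusted p = 0.175) or eye 4 (-0.73, adjusted p = 0.235), while without eye 2, the only eye with the opposite sign, it grew to -2.08 (adjusted p = 0.00572). Without the 3 libraries high in Schwann markers it was -2.51 (adjusted p = 0.00174). In the same libraries the 9 rod markers, none of them at 0, summed to 59.3, 51.1, 539 and 133 CPM at the fovea and 925, 126, 213 and 691 CPM at the periphery. The part of retinal tissue left on the RPE/choroid in these differences was not tested.

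SOX2 went from 2.20, 1.25, 3.13 and 1.89 CPM at the fovea of RPE/choroid to 5.71, 15.4, 3.39 and 4.21 CPM at the periphery (log2 fold change -1.56, standard error 0.57, adjusted p = 0.0459), with no overlap of the eyes. The highest value was that of eye 2, which also held the highest level of Schwann markers, 16261 CPM. The call was lost with the eye as a block (adjusted p = 0.0734), without eye 1 (-1.71, adjusted p = 0.0794), without eye 2 (-0.82, adjusted p = 0.147), without eye 4 (-1.69, adjusted p = 0.142), and when the 3 libraries high in Schwann markers were left out (-0.60, adjusted p = 0.221), an alternative chosen after the data were seen. GLUL was called between fovea and periphery (-0.36, standard error 0.10, adjusted p = 0.0163), with 593, 533, 842 and 859 CPM against 812, 710, 857 and 1191 CPM. Its ranges overlapped, and the call was lost without eye 1 (-0.31, adjusted p = 0.0958), eye 2 (-0.34, adjusted p = 0.0642) or eye 4 (-0.31, adjusted p = 0.117) and without the 3 libraries (-0.27, adjusted p = 0.154). In both eyes of RM04 GLUL lay above both eyes of RM03 at every RPE/choroid location.

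Between perimacula and periphery of RPE/choroid 4 of 9 genes were called, against 34.9% of all genes: SOX9 and VIM were higher at the perimacula and SLC1A3 and AQP4 lower. The VIM difference (log2 fold change 0.30, adjusted p = 0.0175) was lost without eye 1 (0.27, adjusted p = 0.0871), eye 3 (0.30, adjusted p = 0.0786) or eye 4 (0.28, adjusted p = 0.11). That of SLC1A3 (-1.20, adjusted p = 0.00728) was lost without eye 1 (-1.21, adjusted p = 0.0544) or eye 4 (-0.82, adjusted p = 0.0561), and that of AQP4 (-1.49, adjusted p = 0.0405, and -2.29 without the 3 libraries) with the eye as a block (adjusted p = 0.0653) and without eye 1 (-1.63, adjusted p = 0.115), eye 3 (-1.40, adjusted p = 0.159) or eye 4 (-0.82, adjusted p = 0.217). Between nasal punches and the periphery 3 of 9 were called, against 44.6% of all genes: SOX9 was higher at the nasal location and GLUL (-0.49, adjusted p = 0.00124, but -0.45 with adjusted p = 0.171 without the animal as covariate) and SOX2 lower. The SOX2 difference there (-1.43, adjusted p = 0.0407) was lost with the eye as a block (adjusted p = 0.0627) and without any of the 4 eyes in turn, at adjusted p of 0.0837 without eye 1, 0.106 without eye 2, 0.0671 without eye 3 and 0.0774 without eye 4. It was -0.44 (adjusted p = 0.413) without the 3 libraries.

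GFAP in RPE/choroid was high in single libraries. It stood at 5.31, 8.47, 4.41 and 7.48 CPM at the fovea, 147, 7.35, 1.07 and 30.1 at the perimacula, 7.32, 11.3, 0.855 and 1.31 at the nasal location and 47.2, 57.3, 4.34 and 4.65 at the periphery. The 4 libraries above 20 CPM, eyes 1 and 4 of the perimacula and eyes 1 and 2 of the periphery, were also the 4 with the highest sums of Schwann and peripheral myelin markers, 10527, 2966, 6362 and 16261 CPM, over 8 of 10 markers measured. The main edgeR fits called no GFAP difference between RPE/choroid locations. DESeq2 called the perimacula higher than the nasal location (3.39, adjusted p = 0.00768, against 0.0798 in edgeR). DESeq2 also called the nasal location lower than the periphery (-2.34, adjusted p = 0.0281, against 0.0619 in edgeR). With only these groups fitted, edgeR called that difference as well (-2.31, adjusted p = 0.000293). The part of nerve tissue in the GFAP level was not tested. KCNJ10 also varied between eyes in RPE/choroid, from 7.79 to 61.5 CPM. The main edgeR fits called no difference between locations for it. DESeq2 called the perimacula higher than the nasal location (1.32, adjusted p = 0.0157, against 0.107 in edgeR). So did edgeR on either of the 2 shared flow cells alone (1.29, adjusted p = 0.0281, and 1.47, adjusted p = 0.0162). Without the 3 libraries high in Schwann markers edgeR called KCNJ10 higher at the perimacula than at the nasal location (0.90, adjusted p = 0.0318) and the periphery (1.34, adjusted p = 0.00064), and higher at the fovea than at the periphery (0.66, adjusted p = 0.0082), where the fit of all libraries gave -0.52 (adjusted p = 0.36).

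**Figure D4:**
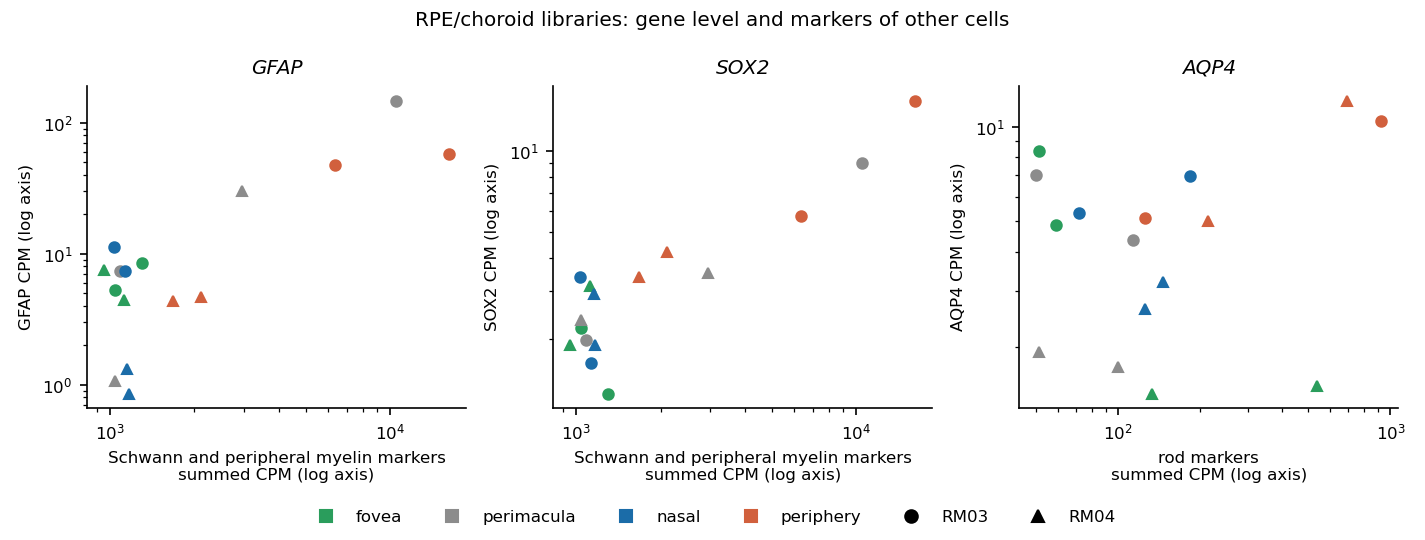
GFAP and SOX2 against summed Schwann and peripheral myelin markers, and AQP4 against summed rod markers, in CPM on logarithmic axes, for the 16 RPE/choroid libraries colored by location, with circles for RM03 and triangles for RM04. GFAP above 20 CPM occurs in the 4 libraries with the highest Schwann marker sums, and the 2 highest AQP4 values, 10.4 and 12.1 CPM, in periphery libraries with rod marker sums of 925 and 691 CPM, while the fovea libraries of eyes 3 and 2 held 1.5 and 8.40 CPM of AQP4 at rod sums of 539 and 51.1 CPM.

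The comparison of the tissues shows which of the 9 genes were higher in retina, without assigning them to a cell type. At the fovea 7 of 9 were called between retina and RPE/choroid, against 74.6% of all genes, 4 of them higher in retina and 3 lower. SLC1A3 was 17.9-fold higher in retina (log2 fold change 4.16, standard error 0.37, adjusted p = 2.86e-09), AQP4 17.5-fold (4.13, standard error 0.53, adjusted p = 5.35e-07), SOX2 10.7-fold (3.42, standard error 0.45, adjusted p = 9.50e-07) and KCNJ10 4.52-fold (2.17, standard error 0.35, adjusted p = 1.23e-05). These 4 genes were higher in retina at all 4 locations. The foveal value of AQP4 was 4.81 without eye 2, the perimacular value of SOX2 (2.63) was 3.28 without eye 1, and without the 3 libraries high in Schwann markers the peripheral values of KCNJ10 (2.62) and SOX2 (2.56) were 3.28 and 3.49. VIM was 15.5-fold lower in retina than in RPE/choroid at the fovea (-3.95, standard error 0.15, adjusted p = 5.81e-15), SOX9 3.70-fold (-1.89, standard error 0.17, adjusted p = 3.48e-09) and CLU 3.13-fold (-1.64, standard error 0.20, adjusted p = 2.57e-07). In these punches VIM, SOX9 and CLU were thus not particular to the retina. RPE/choroid also held 2449 to 10285 CPM of 7 fibroblast and stroma markers and 1170 to 2855 CPM of 8 endothelial markers, and the part of these and of the pigment epithelium was not tested.

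At the perimacula 7 of 9 genes were called, against 75.6% of all genes, the same 7 in the same directions as at the fovea. At the nasal location 9 of 9 were called, against 76.2%: GLUL (log2 fold change 0.40, adjusted p = 0.0174) and GFAP (3.71, standard error 0.85, adjusted p = 0.000322) were also higher in retina there. The GLUL call was lost without eye 1 (0.27, adjusted p = 0.187) and without eye 2 (0.29, adjusted p = 0.15). At the periphery 7 of 9 were called, against 74.3%, 5 of them higher in retina, with GLUL 1.74-fold higher (0.80, standard error 0.15, adjusted p = 7.23e-05). VIM remained lower in retina by 2.37-fold (-1.25, standard error 0.14) and SOX9 by 1.51-fold (-0.60, adjusted p = 0.00292), the latter not without eye 1 (-0.37, adjusted p = 0.0792). CLU stood at a mean of 961 CPM in peripheral retina and 963 CPM in peripheral RPE/choroid (0.03, standard error 0.19, adjusted p = 0.905). The main edgeR fit did not call GFAP at the fovea (1.0, adjusted p = 0.272), perimacula (-0.85, adjusted p = 0.334) or periphery (0.67, adjusted p = 0.467). With only the compared groups fitted it was called higher in retina at the fovea (1.02, adjusted p = 0.0033). Without the 3 libraries high in Schwann markers it was called higher in retina at the periphery (2.54, adjusted p = 0.0115).

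**Figure D5:**
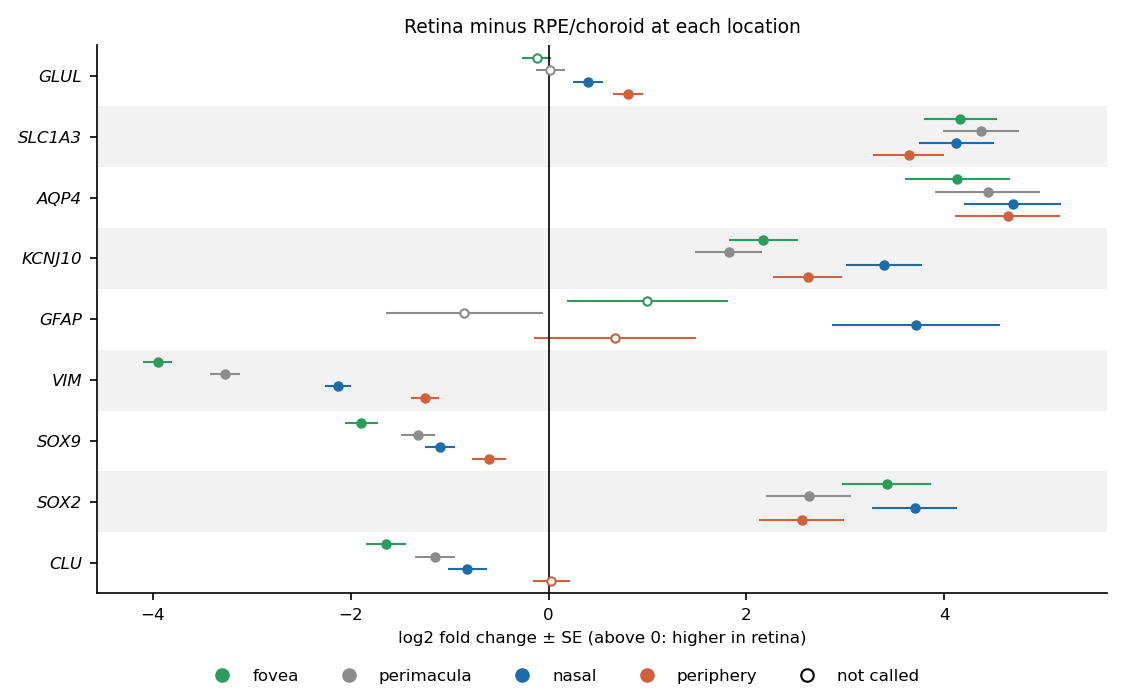
Log2 fold change with its standard error between retina and RPE/choroid at the fovea (green), perimacula (gray), nasal location (blue) and periphery (orange) for the 9 genes, with open circles for differences not called. SLC1A3, AQP4, KCNJ10 and SOX2 lie above 0 at all 4 locations, while VIM moves from -3.95 at the fovea to -1.25 at the periphery and CLU from -1.64 to 0.03.

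Whether the foveal difference itself depended on the tissue was tested as an interaction. Against the periphery 4 of 9 genes were called, where 40.2% of all genes were: VIM (-2.70, standard error 0.19, adjusted p = 1.02e-08), CLU (-1.67, standard error 0.28, adjusted p = 7.86e-05), SOX9 (-1.29, standard error 0.23, adjusted p = 0.000217) and GLUL (-0.91, standard error 0.21, adjusted p = 0.00169). Each value is the log2 fold change of fovea over periphery in retina minus that in RPE/choroid, and all 4 were negative in 4 of 4 eyes. For VIM and CLU the retinal fovea was low while the main edgeR fit called no difference between fovea and periphery in RPE/choroid. For SOX9 the fovea was the highest location of RPE/choroid. Against the nasal location 3 of 9 were called, where 23.5% of all genes were: VIM (-1.86, adjusted p = 8.65e-08), CLU (-0.88, adjusted p = 0.0201) and SOX9 (-0.83, adjusted p = 0.00379). The CLU interaction was lost without eye 1 (-0.92, adjusted p = 0.0683), eye 2 (-0.79, adjusted p = 0.0715), eye 3 (-0.78, adjusted p = 0.145) or eye 4 (-0.83, adjusted p = 0.0811), and that of SOX9 without eye 3 (-0.80, adjusted p = 0.0531) or eye 4 (-0.69, adjusted p = 0.0707). Against the perimacula 1 of 9 was called, VIM (-0.69, adjusted p = 0.0241), where 11.5% of all genes were, and it was lost without eye 1 (-0.70, adjusted p = 0.115), eye 2 (-0.49, adjusted p = 0.207) or eye 3 (-0.59, adjusted p = 0.158). For SLC1A3, AQP4, KCNJ10, GFAP and SOX2 the main edgeR fits called no interaction. Against the nasal location KCNJ10 (-1.22, standard error 0.49, adjusted p = 0.0726) and GFAP (-2.75, standard error 1.11, adjusted p = 0.0756) were negative in 4 of 4 eyes. DESeq2 called both (-1.21, adjusted p = 0.049, and -2.81, adjusted p = 0.0377). With only the compared groups fitted, edgeR called that of GFAP (-2.73, adjusted p = 0.0202). It did so too without the 3 libraries high in Schwann markers (-2.72, adjusted p = 0.0472). Against the periphery the difference between the tissues was 0.52 (standard error 0.46) for SLC1A3, -0.51 (standard error 0.66) for AQP4 and 0.86 (standard error 0.59) for SOX2.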

How the data were processed

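Per the labels and the study's methods, punches were dissected from post-mortem eyes, and total RNA with an integrity number above 6.5 was extracted with PicoPure columns and poly-A selected. The authors quantified reads with Salmon (0.13) against Mmul_8.0.1 transcripts and deposited, for each of 136 lanes, estimated counts per gene, length-scaled by tximport. Here the lanes of each of 32 libraries were summed and rounded, and 10 repeated identifiers with identical values were dropped. Where a symbol had several entries, the one with the highest mean was used.

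Tests used edgeR 4.0.16 (R 4.3.3; quasi-likelihood F test, TMM normalization, filterByExpr with a minimum count of 10, the animal as covariate), with Benjamini-Hochberg adjustment over all genes and a threshold of 0.05. DESeq2 1.42.0 was an alternative. Levels are TMM-normalized CPM over 32 libraries. Fovea, perimacula and periphery were fitted per tissue, nasal comparisons in fits of 4 locations, and tissue comparisons and interactions in joint fits. The edgeR step was tested on simulated data. CPM are not length-corrected, so levels of different genes were not compared.

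Same-numbered libraries come from 1 eye, and their deviations from the group means correlated at a median of 0.56 in retina (-0.03 to 0.82, 24 pairs) and 0.47 in RPE/choroid (0.09 to 0.65). The 4 eyes are of 2 animals, so p-values rest on the spread between eyes, pooled over the groups of a fit. The main fits had the animal and not the eye as covariate, so libraries of 1 eye were not paired. Genes were named as the 9 members, up to 4 called genes per list (the 2 largest changes each way against nasal retina and periphery, alike in 4 of 4 eyes), listed genes of known role, and the 3 genes most like each member. The members and lists were chosen with earlier results of these data known. No sequence of these genes was used here.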

Additional observations from a re-analysis of the deposited data

Results flagged for a closer look

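In retina SOX9 at the fovea, eye 1, at 25.6 CPM, stood apart from the other 3 eyes. It was the only distant eye in 72 groups of 4 eyes, where chance flags about 1 in 20 groups.

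The foveal difference was called as depending on the tissue in 8 instances. Each was tested as an interaction in edgeR with Benjamini-Hochberg adjustment and was negative in 4 of 4 eyes. Against the periphery 4 of 9 genes were called, beside 40.2% of all genes, and against the perimacula 1 of 9, beside 11.5%. These counts lay near the shares over all genes. Against the nasal location 3 of 9 were called, beside 23.5%. Against the periphery the log2 difference between the tissues was -2.70 for VIM, -1.67 for CLU, -1.29 for SOX9 and -0.91 for GLUL. Against the nasal location it was -1.86 for VIM, -0.88 for CLU and -0.83 for SOX9, and against the perimacula it was -0.69 for VIM. The CLU call against the nasal location was lost without any 1 eye, and that of SOX9 without eye 3 or eye 4. The VIM call against the perimacula was lost without eye 1, eye 2 or eye 3.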

How the results depend on the processing

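Of 85 called values of the 9 genes, none changed sign under 1154 alternative values, and 70 of these lost the call. The causes were not tested. Among these was GLUL between nasal and peripheral RPE/choroid, lost with no covariate (-0.45, adjusted p = 0.171). The eye as a replicate block gave 3 genes in place of 5 between fovea and periphery of RPE/choroid and 0 in place of 1 between perimacula and nasal RPE/choroid. It left 4, 8 and 9 genes called between the retinal fovea and the perimacula, periphery and nasal retina.

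Between retinal perimacula and nasal retina (1 gene), DESeq2 called 5, a fit with no covariate 0, a fit of only the compared groups 2, the separate flow cells 6 and 4, and fits without 1 eye 0 to 1. Between fovea and perimacula of retina (4) only the compared groups gave 7. In RPE/choroid, fovea against periphery (5) gave 2 with no covariate, 3 with only the compared groups and 2 to 4 without 1 eye. Perimacula against periphery (4) gave 2 with no covariate and 1 to 4 without 1 eye. Perimacula against nasal (1) gave 3 with DESeq2, 0 with no covariate, 2 with only the compared groups and 3 on either flow cell. It gave 0 without any 1 eye and 2 without the 3 libraries high in Schwann markers, an alternative chosen after seeing the data. Over all 15789 genes there edgeR called 484 and DESeq2 1247. Nasal against periphery (3) gave 6 with DESeq2 and 5 with 10 counts required in every library. Over all 15789 genes there edgeR called 7038 and DESeq2 7579. Of the genes called there, SOX2 was lost with the eye as a block, without any 1 eye and without the 3 libraries, and GLUL with no covariate. SLC1A3 and AQP4 were gained without eye 2 and without the 3 libraries. The interaction against the perimacula (1) gave 0 with no covariate, 2 with only the compared groups and 0 to 1 without 1 eye. That against the nasal location (3) gave 5 with DESeq2 and 1 to 2 without 1 eye. Over all 16382 genes the nasal interaction was called for 3853 by edgeR and 4268 by DESeq2. With 2 animals, differences between animals and between eyes limit all calls.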
